A study of Rattus norvegicus with 27 samples.

Results

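Hmox1 (ENSRNOG00000014117), Nqo1 (ENSRNOG00000012772) and Gclc (ENSRNOG00000006302) encode enzymes of the oxidative stress response, and were followed in rat lung fibroblasts kept on a soft or a rigid surface for up to 14 days. They were picked by Ensembl gene ID and are 3 of the 32753 IDs in the count table. All 3 were among the 14258 genes with enough reads to be tested. The symbols come with the IDs by which the genes were chosen, since the files hold IDs alone.

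The cells were primary fibroblasts from the lungs of Sprague-Dawley rats, an outbred stock, sorted with magnetic beads for CD90 (the Thy-1 surface antigen). They grew in MucilAir medium either on PDMS, a silicone elastomer (Sylgard) with a stiffness of 3 to 5 kPa, or on plastic, and every surface carried rat tail collagen I at 38 µg/ml. PDMS was sampled at days 2, 4, 7 and 14 and plastic at days 4, 7 and 14, with 4 RNA-seq libraries in each group except Plastic day 7, which has 3 (replicates 1, 3 and 4). Day 2 has libraries on PDMS only, so a difference between PDMS day 2 and a later day has no counterpart on plastic here. The names of the count columns mark every library as WT, for wild type, and as a monoculture. Age is not given, and the labels do not say which animal, isolation or culture a library came from. The p-values therefore measure the spread between these libraries, which may be technical. In such bulk RNA, fewer cells of a type and less RNA per cell cannot be told apart.

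Cells meet oxidants and reactive electrophiles with a set of enzymes that the transcription factor NRF2 induces. In resting cells the adaptor KEAP1 marks NRF2 for degradation, and when KEAP1 is modified by an electrophile NRF2 builds up and binds antioxidant response elements together with small MAF proteins. Heme oxygenase 1, from Hmox1, breaks heme down to biliverdin, carbon monoxide and iron, and its gene is also held down by the heme-sensing repressor BACH1 and induced by heme and many kinds of stress. NAD(P)H quinone dehydrogenase 1, from Nqo1, reduces quinones to hydroquinones without forming the semiquinone radical. Gclc encodes the catalytic subunit of glutamate-cysteine ligase, the rate-limiting step of glutathione synthesis.

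The bases upstream of the transcription start are shown because the genes are textbook NRF2 targets. RefSeq windows of 250 bases before the start in the GRCr8 assembly were matched by symbol for 2 of the 3 genes, Nqo1 (chr19:52220268-52220517, minus strand) and Gclc (chr8:87510226-87510475, plus strand). Capitals mark the letters of a TATA box (TATAAA) or an Sp1 GC box (GGGCGG, or CCGCCC where it lies on the other strand). Whether they act as such at these positions was not tested.
Nqo1: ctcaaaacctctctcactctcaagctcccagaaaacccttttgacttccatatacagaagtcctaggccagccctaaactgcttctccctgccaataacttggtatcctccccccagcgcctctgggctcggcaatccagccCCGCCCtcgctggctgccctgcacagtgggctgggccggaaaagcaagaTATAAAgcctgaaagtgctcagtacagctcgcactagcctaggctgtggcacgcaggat
Gclc: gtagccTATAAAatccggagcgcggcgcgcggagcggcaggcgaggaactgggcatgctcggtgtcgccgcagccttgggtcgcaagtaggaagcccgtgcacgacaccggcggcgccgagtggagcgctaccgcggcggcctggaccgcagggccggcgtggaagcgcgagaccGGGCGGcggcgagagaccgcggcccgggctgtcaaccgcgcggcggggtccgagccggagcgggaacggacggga
In the Nqo1 window the GC box lies at -108 to -103 and TATAAA at -59 to -54 from the start, and 56.4% of the bases are G or C. In the Gclc window TATAAA lies at -244 to -239 and the GC box at -75 to -70, and 74.8% of the bases are G or C. On either strand, TATAAA occurs in 12.9% and GGGCGG in 30.5% of the 33469 windows of this length in the table. The core of the antioxidant response element, searched as TGACNNNGC, was in 10.1% of all windows and in neither of these. The AP-1 site TGACTCA, whose letters can overlap that core, was in 4.05% of all windows and likewise in neither. These searches say only which letters these windows hold, and bases farther upstream were not searched.

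Library totals were 17.3 to 25.3 M counts, with group means from 19.9 M (Plastic day 7) to 23.5 M (PDMS day 14). Levels are given as CPM, counts per M of a library size scaled by the TMM method. A gene was called where edgeR's quasi-likelihood F test over all 27 libraries gave a Benjamini-Hochberg adjusted p under 0.05 across the 14258 genes, and differences are log2 fold changes with their standard error (SE). The libraries of Plastic day 4 replicates 1 and 2 and of Plastic day 14 replicates 2 and 3 resembled each other most (SD of log2 ratios over genes 0.183 and 0.158, against 0.272 to 1.12 in the other pairs of the 39 within groups). Their counts differed by more than sampling noise (median chi-square 2.80 and 1.69, where counting alone gives 0.455), but by less than those of the other pairs (6.85 to 65.9). Whether such a pair came from the same RNA or culture cannot be told from these values. The pairs were kept apart in the main fit, and summed in an alternative fit. From Plastic day 4 to day 14 that fit called 2375 genes, against 4641 in the main fit. Over all genes, 3 libraries stood apart from the rest of their groups, namely PDMS day 4 replicate 2 (SD of log2 ratios 0.681 to 0.779, against 0.272 to 0.333 among the other 3), Plastic day 4 replicate 3 (1.07 and 1.12 to replicates 1 and 2, and 0.629 to replicate 4) and Plastic day 14 replicate 4 (0.881 to 0.899, against 0.158 to 0.398). In Plastic day 4, replicate 4 was itself 0.639 and 0.673 from replicates 1 and 2, so only that alike pair was close. Plastic day 7 (0.563 to 0.783) and PDMS day 14 (0.486 to 0.757) had wide spreads too. PDMS day 2 was widely spread as a whole. There replicates 1 and 3 were 0.493 apart, replicate 2 was 0.779 to 0.805 from the others, and replicate 4 was 0.712 to 0.939 from them. The cell type markers listed for a check of the fibroblast label could not be looked up, because no table at hand pairs their symbols with these IDs.

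**Figure D1:**
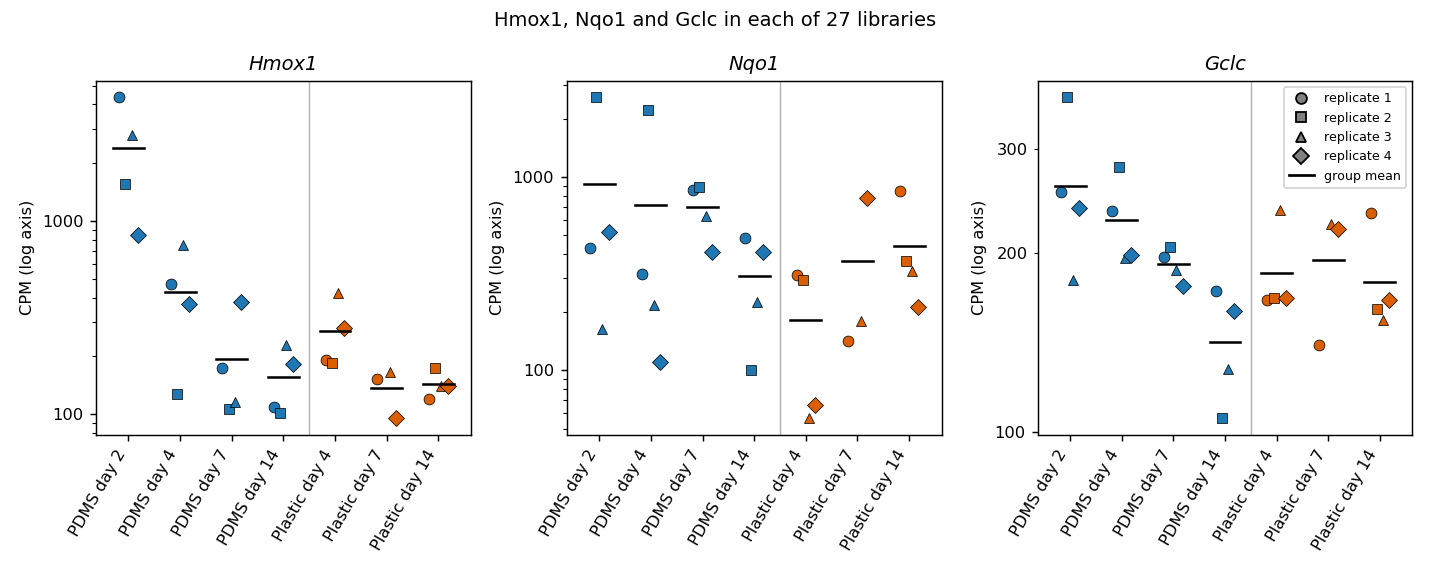
Level of each gene in each library, in CPM on a log axis whose range differs between panels, by substrate and day (blue PDMS, orange plastic; the marker shape gives the replicate number and the bar the group mean). Hmox1 is highest in the 4 libraries of PDMS day 2, at 845 CPM or more, while single Nqo1 libraries of PDMS days 2 and 4 stand apart at 2603 and 2226 CPM.

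Hmox1 was high at PDMS day 2 and fell on PDMS between day 2 and day 4. At PDMS day 2 its 4 replicates were at 4368, 1558, 2781 and 845 CPM, a mean of 2388 ± 1543 CPM (SD, n = 4). At PDMS day 4 they were at 470, 128, 750 and 371 CPM, a mean of 430 ± 257 CPM (SD, n = 4). The lowest library of day 2 lay above the highest of day 4, an order found in 4.11% of all genes. In PDMS day 2 replicate 1 Hmox1 ranked 10th of all genes by count, and in replicates 2, 3 and 4 of that group 27th, 18th and 115th.

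The fitted fall from PDMS day 2 to day 4 was -2.47 ± 0.52 on the log2 scale (SE), or 5.56-fold lower, with an edgeR adjusted p of 0.0115. Hmox1 was the 1 of the 3 genes called there, in a comparison that called 10.0% of all genes, with 4.85% of all genes called downward. It ranked 273rd of the 14258 genes by the size of the fall. Replicate numbers were taken to pair the libraries of these days, from the data and not from a label. With the number as a replicate block the edgeR value was -2.58 (adjusted p 0.00929). In fits restricted to these 2 groups the call was lost, at -2.50 with the replicate block (edgeR adjusted p 0.0593, 263 genes called) and -2.52 without it (edgeR adjusted p 0.134, no gene called). Without PDMS day 2 replicate 1, the highest library, it was -2.00 (edgeR adjusted p 0.0611).

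After day 4 the PDMS libraries were lower still, and their SD was smaller. At PDMS day 7 Hmox1 stood at 174, 106, 115 and 379 CPM (mean 193 ± 127 CPM, SD, n = 4), with replicate 4 far above the rest. At PDMS day 14 it stood at 109, 101, 226 and 181 CPM (mean 155 ± 59.8 CPM, SD, n = 4). Day 7 overlapped both day 4 and day 14, and neither step was called: -1.15 ± 0.50 from day 4 to day 7 (SE; edgeR adjusted p 0.339) and -0.32 ± 0.49 from day 7 to day 14 (edgeR adjusted p 0.708). The same steps called 0.147% and 5.53% of all genes.

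Over the full course on PDMS, Hmox1 fell by 3.95 on the log2 scale (SE 0.55), which is 15.5-fold lower at day 14 than at day 2 (edgeR adjusted p 1.64e-05). No library of day 14 reached the lowest library of day 2, as in 20.2% of all genes. Hmox1 and Gclc, 2 of the 3 genes, were called in this comparison. There 51.6% of all genes were called, with 27.3% of all genes called downward, so a call in itself is common here. Hmox1 ranked 797th of the 14258 genes by the size of its fall. From day 4 to day 14 it fell by 1.48 ± 0.50 (SE; 2.78-fold lower; edgeR adjusted p 0.0332), although PDMS day 4 replicate 2, at 128 CPM, lay inside the range of day 14. In that comparison 28.6% of all genes were called, with 15.2% of all genes called downward, and again Hmox1 and Gclc were 2 of the 3 called. This Hmox1 call was lost without PDMS day 4 replicate 1 (-1.41, edgeR adjusted p 0.0705) or replicate 3 (-1.06, edgeR adjusted p 0.127). It was also lost without PDMS day 14 replicate 1 (-1.34, edgeR adjusted p 0.0827), replicate 2 (-1.32, edgeR adjusted p 0.0804) or replicate 4 (-1.56, edgeR adjusted p 0.0549), and with only these groups in the fit (-1.47, edgeR adjusted p 0.0545).

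On plastic, Hmox1 had its highest libraries at day 4. They were at 191, 183, 423 and 279 CPM (mean 269 ± 111 CPM, SD, n = 4), against 152, 164 and 94.8 CPM at Plastic day 7 (mean 137 ± 37.1 CPM, SD, n = 3). Plastic day 14 had 119, 173, 139 and 139 CPM (mean 143 ± 22.2 CPM, SD, n = 4), the tightest group for this gene. Every library of Plastic day 4 lay above every library of day 7 and of day 14. For day 14 this order was found in 14.3% of all genes, and for day 7 a gap between the groups in either direction was found in 13.5%. The fitted differences were not called, at -0.97 ± 0.55 from day 4 to day 7 (SE; edgeR adjusted p 0.334), 0.06 ± 0.53 from day 7 to day 14 (edgeR adjusted p 0.978) and -0.92 ± 0.50 from day 4 to day 14 (edgeR adjusted p 0.158). From day 4 to day 14, 32.6% of all genes were called by edgeR and 0 of these 3, with 0 of the 3 at an unadjusted p under 0.05 and 0 called by DESeq2 or limma-voom. From day 7 to day 14, 0.0842% of all genes were called, and from day 4 to day 7 edgeR called 0% of all genes (2665 at an unadjusted p under 0.05, and 388 called by DESeq2 and 2 by limma-voom). Without Plastic day 4 replicate 3, edgeR called 528 genes from day 4 to day 7, and 0 of these 3.

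The substrates themselves were not separated for Hmox1. PDMS and plastic libraries overlapped at every shared day, as they did for Nqo1 and Gclc, where 4.15% (day 4), 18.3% (day 7) and 5.90% (day 14) of all genes did not overlap. PDMS exceeded plastic by 0.68 ± 0.49 at day 4 (SE; edgeR adjusted p 0.822), by 0.50 ± 0.54 at day 7 (edgeR adjusted p 0.676) and by 0.12 ± 0.49 at day 14 (edgeR adjusted p 0.969). The day 7 value rests on PDMS day 7 replicate 4, without which it was -0.06, and the day 14 value was -0.13 without PDMS day 14 replicate 3 and -0.02 with a replicate block. Averaged over the shared days the difference was 0.43, with a 95% interval of -0.18 to 1.04. In the order of group means, PDMS day 2 came first, followed by day 4 on PDMS and then on plastic, days 7 and 14 on PDMS, and last days 14 and 7 on plastic. Below PDMS day 2, neighbours in that order overlapped and differed by less than the larger of their SDs.

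Nqo1 varied more between libraries of a group than between the groups, and passed the test in no comparison. PDMS day 2 held 430, 2603, 164 and 519 CPM (mean 929 ± 1126 CPM, SD, n = 4) and PDMS day 4 held 315, 2226, 219 and 111 CPM (mean 718 ± 1009 CPM, SD, n = 4). In both groups replicate 2 stood far above the others, with a 15.9-fold and a 20.0-fold range from the lowest to the highest library. PDMS day 4 replicate 2 stood apart over all genes too. PDMS day 2 replicate 2 was 0.779 to 0.805 from the others of its group over all genes (SD of log2 ratios). The part of either in the Nqo1 levels was not tested. In PDMS day 2 replicate 2 Nqo1 was the 9th gene of its library by count, and in PDMS day 4 replicate 2 the 19th. The other libraries of those groups ranged from 111 to 519 CPM.

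The later PDMS groups had no such library. Nqo1 stood at 861, 895, 634 and 409 CPM at PDMS day 7 (mean 700 ± 226 CPM, SD, n = 4), a 2.19-fold range, and at 487, 101, 227 and 412 CPM at PDMS day 14 (mean 307 ± 175 CPM, SD, n = 4). All but the replicate 4 library of day 7 lay above all of day 14. From PDMS day 2 to day 14 the fitted difference was -1.60 ± 0.90 (SE; edgeR adjusted p 0.141), and without PDMS day 2 replicate 2 it was -0.29. From day 4 to day 14 it was -1.23 ± 0.89 (SE; edgeR adjusted p 0.300), and 0.56 without PDMS day 4 replicate 2. The steps gave -0.37 ± 0.88 (day 2 to 4; edgeR adjusted p 0.816), -0.04 ± 0.88 (day 4 to 7; edgeR adjusted p 0.996) and -1.19 ± 0.89 (day 7 to 14; edgeR adjusted p 0.400). The first turned to 0.93 without PDMS day 2 replicate 2, and the second to 1.77 without PDMS day 4 replicate 2, to 0.90 with limma-voom and to 0.65 with the replicate block.

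On plastic the Nqo1 means ran the other way, within a similar spread. Plastic day 4 held 311, 293, 56.4 and 65.9 CPM (mean 182 ± 139 CPM, SD, n = 4), where replicates 1 and 2, the libraries most alike in that group, were the high ones. Plastic day 7 held 143, 180 and 778 CPM (mean 367 ± 357 CPM, SD, n = 3), and Plastic day 14 held 854, 369, 329 and 212 CPM (mean 441 ± 283 CPM, SD, n = 4). The 3 groups overlapped. The difference from day 4 to day 14 was 1.28 ± 0.89 (SE; edgeR adjusted p 0.277), from day 4 to day 7 1.02 ± 0.94 (edgeR adjusted p 0.565) and from day 7 to day 14 0.26 ± 0.95 (edgeR adjusted p 0.936). The last was -0.15 with the replicate block, and the second -0.17 without Plastic day 7 replicate 4.

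PDMS against plastic, Nqo1 gave its largest difference at day 4, 1.98 ± 0.91 (SE; 3.95-fold higher on PDMS; 95% interval 0.10 to 3.87; unadjusted edgeR p 0.0403, adjusted p 0.536). That value came largely from PDMS day 4 replicate 2, without which it was 0.23. In that comparison 0 of the 3 genes and 0% of all genes were called by edgeR, with 1 of the 3 and 1246 of all genes at an unadjusted p under 0.05. With replicate 3 of Plastic day 4 left out, edgeR called 245 of all genes and 0 of these 3. DESeq2 called 24 of all genes and limma-voom 0 there, and neither called any of the 3. At day 7 the Nqo1 difference was 0.93 ± 0.97 (SE; edgeR adjusted p 0.663), in a comparison that called 0.849% of all genes. At day 14 it was -0.52 ± 0.88 (edgeR adjusted p 0.908), and 0.02 without Plastic day 14 replicate 1. The mean over the shared days was 0.80 ± 0.53 (SE; edgeR adjusted p 0.406), with a 95% interval of -0.30 to 1.89. By mean level the groups ran from days 2, 4 and 7 on PDMS through days 14 and 7 on plastic to day 14 on PDMS and, lowest, day 4 on plastic. All neighbours in this order overlapped and differed by less than the larger SD.

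Gclc varied least within groups of the 3, and fell on PDMS towards day 14. PDMS day 2 held 254, 367, 180 and 238 CPM (mean 260 ± 78.2 CPM, SD, n = 4) and PDMS day 4 held 236, 279, 197 and 199 CPM (mean 228 ± 38.9 CPM, SD, n = 4). PDMS day 7 was tight, at 197, 205, 188 and 176 CPM (mean 192 ± 12.5 CPM, SD, n = 4). PDMS day 14 held 173, 105, 128 and 160 CPM (mean 141 ± 30.7 CPM, SD, n = 4). Its 4 libraries lay below every other PDMS library of the course, an order found in 20.2% of all genes against day 2, 17.1% against day 4 and 10.7% against day 7.

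From PDMS day 2 to day 14 Gclc fell by 0.88 ± 0.21 on the log2 scale (SE; 1.84-fold lower; edgeR adjusted p 0.00145). From day 4 to day 14 it fell by 0.69 ± 0.21 (SE; 1.61-fold lower; edgeR adjusted p 0.0189). The second call was lost without PDMS day 4 replicate 2 (-0.53, edgeR adjusted p 0.0785), PDMS day 14 replicate 2 (-0.57, edgeR adjusted p 0.0567) or PDMS day 14 replicate 3 (-0.64, edgeR adjusted p 0.0536). The single steps were not called, at -0.19 ± 0.20 (day 2 to 4; edgeR adjusted p 0.579), -0.25 ± 0.20 (day 4 to 7; edgeR adjusted p 0.741) and -0.44 ± 0.21 (day 7 to 14; edgeR adjusted p 0.174). The Gclc fall over the full course ranked 2721st by size among the 14258 genes.

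On plastic, no difference between days was called for Gclc. Plastic day 4 had 167, 168, 237 and 168 CPM (mean 185 ± 34.5 CPM, SD, n = 4), with only replicate 3 apart, the library that also stood apart over all genes. Plastic day 7 had 140, 224 and 220 CPM (mean 195 ± 47.2 CPM, SD, n = 3), and Plastic day 14 had 234, 161, 154 and 167 CPM (mean 179 ± 36.7 CPM, SD, n = 4). From day 4 to day 14 the difference was -0.05 ± 0.20 (SE; edgeR adjusted p 0.880), with a 95% interval of -0.47 to 0.38, and 0.13 without Plastic day 4 replicate 3. The steps were 0.07 ± 0.22 (edgeR adjusted p 0.880) and -0.12 ± 0.22 (edgeR adjusted p 0.860), the first of them -0.01 with unscaled library sizes.

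Between substrates, Gclc differed by 0.30 ± 0.20 at day 4 (SE; higher on PDMS; edgeR adjusted p 0.789), by -0.02 ± 0.22 at day 7 (edgeR adjusted p 0.972) and by -0.34 ± 0.21 at day 14 (lower on PDMS; edgeR adjusted p 0.669). The day 7 value was 0.08 with unscaled library sizes. At day 14, where edgeR called 0 of the 3 and 0% of all genes, 0 of the 3 and 1266 of all genes had an unadjusted p under 0.05, and DESeq2 called 113 genes and limma-voom 2, none of these 3. Without Plastic day 14 replicate 4, edgeR called 88 genes and 0 of these 3. The mean over the shared days was -0.02, with a 95% interval of -0.27 to 0.23, and 0.07 with unscaled library sizes. 0 of the 3 genes passed that mean contrast, which called 7.04% of all genes. By mean level Gclc ran from days 2 and 4 on PDMS through day 7 on plastic, day 7 on PDMS and days 4 and 14 on plastic to day 14 on PDMS. All neighbours overlapped, and only the last step, 37.6 CPM against a larger SD of 36.7, exceeded the spread.

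**Figure D2:**
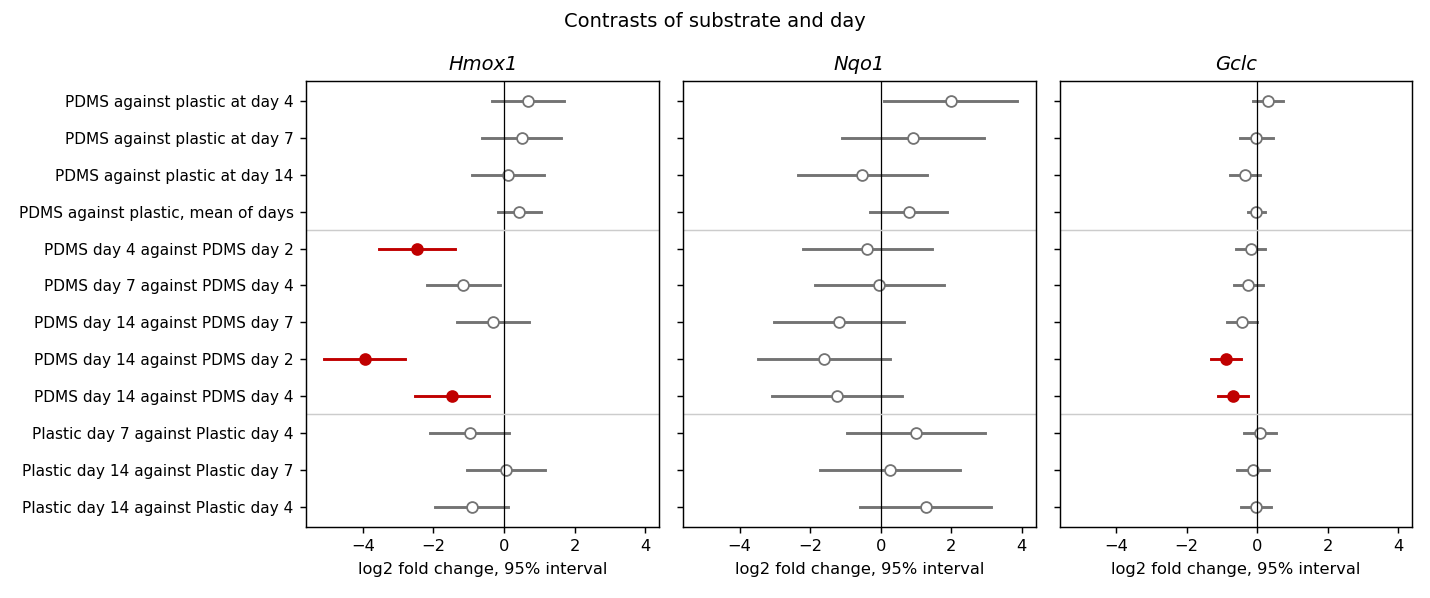
Fitted log2 fold changes with 95% intervals for the 3 genes in the substrate contrasts (top, PDMS over plastic), the day contrasts on PDMS (middle) and those on plastic (bottom); filled red points have an edgeR adjusted p under 0.05. All 5 red points are day contrasts on PDMS, 3 for Hmox1 and 2 for Gclc, and the widest intervals are those of Nqo1.

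Whether the change over days differed between PDMS and plastic was tested as an interaction, which needs a day measured on both and so leaves day 2 out. From day 4 to day 14 the change on PDMS minus that on plastic was -0.64 ± 0.29 for Gclc (SE; unadjusted edgeR p 0.0380, adjusted p 0.715), -2.51 ± 1.26 for Nqo1 (SE; unadjusted edgeR p 0.0594, adjusted p 0.753) and -0.56 ± 0.70 for Hmox1 (SE; edgeR adjusted p 0.934). By edgeR 0 of the 3 genes and 0% of all genes were called, with 1 of the 3 and 971 of all genes at an unadjusted p under 0.05. DESeq2 called 4 of all genes and limma-voom 0, none of these 3. The Gclc fall on PDMS is therefore not shown to differ from the course on plastic.

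The 3 genes differed in where their variation lay. Groups accounted for 80.3% of the variance of log2 CPM for Hmox1, 50.3% for Gclc and 29.3% for Nqo1, with a median of 51.1% over all tested genes. The SD within groups was 1.29 for Nqo1, above 95.7% of all tested genes, 0.75 for Hmox1 and 0.30 for Gclc, against a median of 0.35. That median includes genes of low level. Among the 892 genes whose mean log2 CPM was at least that of the lowest of these 3, the percentages differed. There the SD of Nqo1 was above 98.4% of genes, that of Hmox1 above 92.7% and that of Gclc above 58.4%. The biological coefficient of variation fitted by edgeR, which is the spread beyond counting noise, was 0.809 for Nqo1, 0.478 for Hmox1 and 0.214 for Gclc, with a median of 0.243. The lowest value of any of the 3 was 56.4 CPM, a level at which counting noise is small.

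Within groups, Nqo1 and Gclc tended to be high in the same libraries. After each group's mean was subtracted, their log2 CPM deviations gave Pearson's r = 0.65 and Spearman's rho = 0.58 over the 27 libraries (two-sided permutation test within groups, p 0.00289 and 0.0088; adjusted over the 3 pairs of genes 0.00867 and 0.026). Pairs outside these 3 genes were not tested in this way, so how common such an r is among all genes is not known. Plastic day 4 went against this, since its replicate 3 was the highest library in Gclc (deviation 0.37) and the lowest in Nqo1 (-1.27). PDMS day 2 replicate 2 and PDMS day 4 replicate 2 were the highest libraries of their groups in both genes. Those are also the libraries farthest from the median in Nqo1, and without them r was 0.49 and rho 0.44 and the permutation test no longer passed (adjusted p 0.09 and 0.136), so the relation rests in part on them. Because replicate numbers were taken to pair PDMS days 2 and 4, the test was repeated with these days shuffled together, a choice made after seeing the data, and the adjusted permutation p was 0.0232 for r and 0.0341 for rho.

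Hmox1 and Nqo1 tended to go opposite ways within a group, with r = -0.56 and rho = -0.51 (two-sided permutation test, p 0.021 and 0.0173; adjusted 0.0315 and 0.026). Without PDMS day 2 replicate 4 and PDMS day 4 replicate 2, the farthest in Hmox1, r was -0.47 and rho -0.43 (permutation test, adjusted p 0.09 and 0.136). With unscaled library sizes r was -0.51 (permutation test, adjusted p 0.0645) and rho -0.53 (adjusted p 0.021), so the rank correlation still passed. With PDMS days 2 and 4 shuffled together, both passed (permutation test, adjusted p 0.0232 and 0.0341). The closely alike Plastic day 4 replicates 1 and 2 gave nearly the same point (Hmox1 -0.41 and -0.47, Nqo1 1.20 and 1.11). The shuffles counted them as separate libraries. For no pair of genes was the co-variation rerun with closely alike libraries summed. Hmox1 and Gclc gave r = -0.22 and rho = -0.19 (permutation test, p 0.363 and 0.388; adjusted p the same values). No library batch is named in the labels, so no value within batches can be given.

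**Figure D3:**
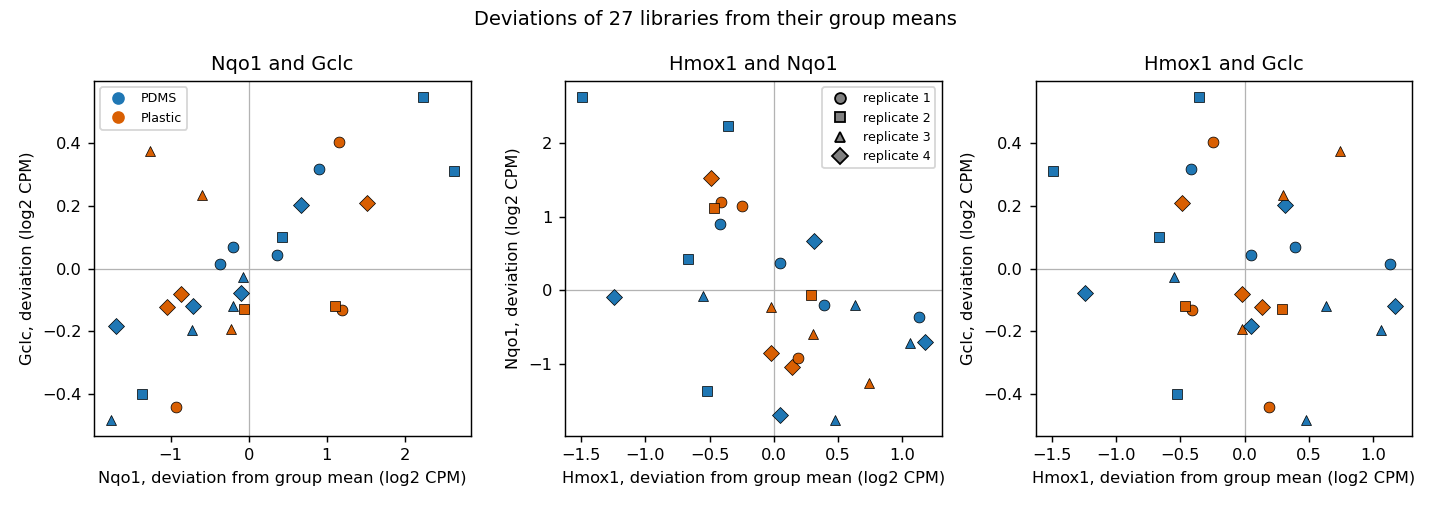
Deviation of each library from its group mean in log2 CPM for the 3 pairs of genes (blue PDMS, orange plastic; the marker shape gives the replicate number). Nqo1 and Gclc rise together (r = 0.65), Hmox1 and Nqo1 run opposite ways (r = -0.56), and Hmox1 and Gclc show no clear trend (r = -0.22).

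Levels of different genes can be compared only per length, for which the authors' length-scaled values were used. On that scale Gclc was the lowest of the 3 in 23 of 27 libraries, and it never exceeded 173. Nqo1 was the highest in 17 libraries and Hmox1 in 10. At PDMS day 2 the log2 ratio of Hmox1 to Nqo1 was 3.35, -0.74, 4.08 and 0.71 in replicates 1 to 4, so that Hmox1 led in all but replicate 2. At PDMS day 4 it was 0.59, -4.13, 1.78 and 1.73, with replicate 2 again the exception. At PDMS day 7 it was -2.32, -3.08, -2.46 and -0.11, and all 4 libraries held more Nqo1.

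At PDMS day 14 the log2 ratio was -2.15, 0.0032, -0.0084 and -1.19, so replicates 2 and 3 held about equal levels. Plastic day 4 was split, at -0.71, -0.68, 2.90 and 2.08. Plastic day 7 was at 0.10, -0.13 and -3.03. Plastic day 14 was at -2.84, -1.09, -1.25 and -0.62, with more Nqo1 in all 4 libraries. On each substrate the ranges of every pair of groups overlapped. PDMS days 2 and 4 overlapped days 7 and 14 through their replicate 2 alone. No test was run on this ratio.

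**Figure D4:**
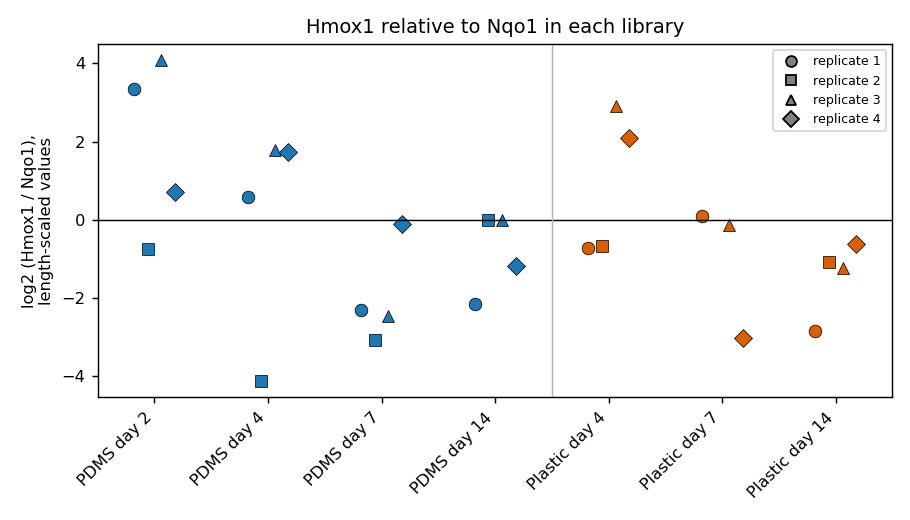
Log2 ratio of Hmox1 to Nqo1 in each library, from the authors' length-scaled values, by substrate and day (blue PDMS, orange plastic; the marker shape gives the replicate number). Points above 0 hold more Hmox1; these are 3 of 4 libraries at PDMS days 2 and 4 and 0 of 4 at PDMS day 7 and Plastic day 14.

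As a description of likeness, the tested gene whose log2 CPM followed each of the 3 most closely over the 27 libraries was looked up. For Hmox1 it was ENSRNOG00000005720 (r = 0.96), a gene of low level at 0 to 8.01 CPM that also fell on PDMS from day 2 to day 14 (edgeR adjusted p 0.000227). For Nqo1 it was ENSRNOG00000029330 (r = 0.89), at 27.1 to 182 CPM and not called in that comparison (edgeR adjusted p 0.165). For Gclc it was ENSRNOG00000050044 (r = 0.82), at 128 to 240 CPM, which fell by 0.53 on the log2 scale (edgeR adjusted p 0.000373). These are the highest of 14258 correlations each, the points share library depth and scaling, and the IDs have no symbol in the tables at hand.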

How the data were processed

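The files hold raw counts as the authors deposited them, whole numbers for each Ensembl rat gene ID with 1 column per library, and a second table under the name RPM. There 96.5% of the values of 6060 genes were within 5% of 1 constant per gene times the counts, after 1 factor per library. It was therefore read as length-scaled and used only to compare genes with each other. Variance-stabilized values were not used. FastQC 0.11.2, STAR, Cufflinks 2.2.1 and DESeq2 appear in the submitters' processing notes, and the series text adds bamUtil 1.0.11 and dupRadar 1.4. The sources used here do not name the counting program, its strand setting, the genome build or the annotation, and overlapping genes may have shared reads. Of 28 count columns, 1 matches none of the samples and was left out.

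The counts went into edgeR 4.0.16 (R 4.3.3). The filterByExpr step (about 10 counts in 3 or more libraries, and 15 in total) kept at least 99.9% of each library's counts. Libraries were scaled by TMM and fitted by quasi-likelihood with a mean for each group over all 27 (20 residual degrees of freedom), with 15 contrasts. Log2 CPM has a prior count of 2. The SE was obtained by dividing the log2 fold change by the root of the F statistic. Alternatives were DESeq2 1.42.0, limma-voom (limma 3.58.1), unscaled library sizes, no low-count filter, only the groups of a contrast, a replicate block, the 2 closely alike pairs summed, and each replicate left out. Co-variation was tested with 100000 shuffles of libraries within groups. For PDMS days 2 and 4, deviations of same-numbered libraries correlated at 0.14 to 0.57 in all 4 pairs, so the numbers were taken to pair them, from the data and not from a label. Their median was 0.244, against -0.151 for libraries of different numbers, whose highest correlation was 0.430, so the 2 sets overlap. In every other pair of groups compared, at least 1 correlation of same-numbered libraries was under 0.1. For PDMS against plastic at day 4 the same-numbered median was higher, at 0.479, against -0.224 for different numbers. Its lowest same-numbered correlation was -0.064, so the numbers were not taken to pair these groups. A pairing there is not excluded, and no shuffle tied these groups together. Tested on simulated data for PDMS day 14 against day 2 (14022 genes), the fit recovered 43% of 2-fold and 85.9% of 4-fold changes, with 4 false calls. The simulated counts were drawn independently, with 200 genes changed and no library standing apart. They therefore do not measure the rate of false calls in the real libraries.

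The 3 genes, the gene lists and the tests were chosen with earlier results of these data known. All 3 genes are named, and for likeness the rule took the 1 gene with the highest r. Lists of other NRF2 regulators and targets, of heme and iron, glutathione and antioxidant genes and of cell type markers are written as symbols. None of the table's IDs could be matched to a symbol (0 of 32753), so these lists were not analysed here.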

Additional observations from a re-analysis of the deposited data

Results flagged for a closer look

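In 18 groups of 4 libraries (6 groups for each of the 3 genes), the gap of the highest or lowest library to its nearest neighbour was set against the range of the group. In 4 of them it passed Dixon's 95% critical value for groups of 4. For normally distributed values, chance marks about 1 in 20, or 0.9 of 18. The gaps were taken on CPM, which spaces high values wider than a log2 scale does. The 4 marks against 0.9 are therefore no measure of an excess. Nqo1 stood apart at 2603 CPM in PDMS day 2 replicate 2 (gap 0.855 of the range) and at 2226 CPM in PDMS day 4 replicate 2 (gap 0.904). Gclc stood apart at 237 CPM in Plastic day 4 replicate 3 (gap 0.983) and at 234 CPM in Plastic day 14 replicate 1 (gap 0.841). All 4 are high libraries, and the marks were not checked on log2 CPM. PDMS day 4 replicate 2 and Plastic day 4 replicate 3 also stood apart from their groups over all genes (SD of log2 ratios to the other libraries 0.681 to 0.779 and 0.629 to 1.12). PDMS day 2 replicate 2 was 0.779 to 0.805 from the others of its group. What that has to do with these levels was not tested. Plastic day 4 replicates 1 and 2, which resemble each other closely over all genes, are among the libraries against which the first Gclc value was set, as are replicates 2 and 3 of Plastic day 14 for the second.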

How the results depend on the processing

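The Hmox1 and Gclc falls from PDMS day 2 to day 14 passed under every alternative run, with Hmox1 at -4.20 to -3.45 and Gclc at -0.99 to -0.69 as each replicate was left out, and at -4.10 to -3.76 and -1.05 to -0.86 under the 7 other settings. Over the values of the 3 genes and their co-variation, 730 alternatives kept direction and call, 15 lost the call, 44 changed sign and 0 gained a call. The Hmox1 falls lost their call with only the groups of the contrast in the fit, from PDMS day 4 to 14 at -1.47 and from day 2 to 4 at -2.52, or -2.50 with the replicate block, an alternative chosen after seeing the data. Pearson's r of the co-variation lost its call without the 2 farthest libraries (0.49 for Nqo1 and Gclc, -0.47 for Hmox1 and Nqo1) and with unscaled library sizes (-0.51 for Hmox1 and Nqo1, where Spearman's rho of -0.53 still passed). The values that changed sign were not called in any setting. With unscaled library sizes they were Gclc between substrates at day 7 (0.082) and over days (0.071) and from Plastic day 4 to 7 (-0.013). With limma-voom they were Gclc between substrates at day 7 (0.0083) and Nqo1 from PDMS day 4 to 7 (0.90). With the replicate block they were the Hmox1 interaction of day 7 against 4 (0.11), Hmox1 between substrates at day 14 (-0.016), Nqo1 from PDMS day 4 to 7 (0.65) and from Plastic day 7 to 14 (-0.15). The replicate block changed no call of the 3 genes fitted over all libraries.

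Leaving out each replicate gave these ranges where a sign or call changed. For Hmox1 they were -2.89 to -2.00 (PDMS day 2 to 4), -1.75 to -1.06 (PDMS day 4 to 14), -0.57 to 0.23 (PDMS day 7 to 14), -0.15 to 0.21 (Plastic day 7 to 14), -0.058 to 0.74 and -0.13 to 0.27 (substrates at days 7 and 14), and -0.73 to 0.23 and -0.63 to 0.18 (interactions of day 7 against 4 and 14 against 7). For Nqo1 they were -2.10 to 0.93, -0.39 to 1.77 and -1.58 to 0.56 (PDMS day 2 to 4, 4 to 7 and 4 to 14), -0.17 to 1.43 and -0.28 to 1.45 (Plastic day 4 to 7 and 7 to 14), -0.84 to 0.017 (substrates at day 14) and -1.44 to 0.73 (interaction of day 7 against 4). For Gclc they were -0.80 to -0.53 (PDMS day 4 to 14), -0.041 to 0.26 and -0.20 to 0.13 (Plastic day 4 to 7 and 4 to 14), and -0.21 to 0.093 and -0.083 to 0.042 (substrates at day 7 and over days).

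The background of called genes moved more. Against 1428 genes from PDMS day 2 to 4, DESeq2 called 2414 and leaving out a replicate gave 56 (PDMS day 2 replicate 1) to 3307 (PDMS day 2 replicate 4). The other settings gave 35 to 781 against 121 for the substrates at day 7, 485 to 1625 against 1004 over days, 3 to 428 against 21 (PDMS day 4 to 7), 354 to 1998 against 788 (PDMS day 7 to 14), 0 to 364 against 12 (Plastic day 7 to 14), 0 to 388 against 0 (Plastic day 4 to 7) and 2375 to 5258 against 4641 (Plastic day 4 to 14). Leaving out a replicate gave 0 (PDMS day 7 replicate 1, 2 or 4, or Plastic day 7 replicate 1) to 193 (Plastic day 7 replicate 3) for the substrates at day 7, and 434 (Plastic day 7 replicate 1) to 1423 (Plastic day 4 replicate 3) over days. For the substrates at days 4 and 14, which had 0, it gave up to 245 (replicate 3 of Plastic day 4 left out) and 88 (replicate 4 of Plastic day 14 left out). It gave 1 to 10 (PDMS day 4 to 7), 5 (PDMS day 7 replicate 2) to 702 (PDMS day 7 to 14), 2590 (PDMS day 4 replicate 1) to 3848 (PDMS day 4 to 14), 0 to 528 (without Plastic day 4 replicate 3; Plastic day 4 to 7), 0 to 4 (Plastic day 7 to 14) and 3075 (Plastic day 4 replicate 2) to 5319 (Plastic day 4 to 14). The cause of these changes was not tested. PDMS day 2 has no plastic counterpart, and groups of 3 or 4 libraries leave wide intervals for Nqo1.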
